A study of Homo sapiens with 8 samples.

Results

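The genes described here were the H3K9 demethylases related to KDM3B, namely KDM3A, KDM3B, JMJD1C, KDM4A, KDM4B, KDM4C, PHF2, PHF8, KDM7A and KDM1A. They were chosen by name, as the target of the knockdown and 9 other enzymes known or proposed to remove methyl groups from lysine 9 of histone H3. The rule was a list of names and used no measured value, although earlier results of these data were known when it was made. All 10 were among the 37526 gene names listed for every library, and all 10 passed the filter on low counts in every comparison. RNA-seq had been run on NB4 cells, a human acute promyelocytic leukemia line that carries the PML/RARα fusion. The 4 groups of 2 libraries were cells stably transduced with the control vector (shNC), cells stably transduced with a lentiviral shRNA against KDM3B (shKDM3B), and the same pair of lines treated with all-trans retinoic acid (shNC_ATRA and shKDM3B_ATRA). ATRA was given at 1 µM, and the protocol names both 24 and 48 h without saying which applies to these libraries. The control is an empty pLVX-shRNA2-puro vector per the labels and a scrambled shRNA per the methods, and the labels do not say which KDM3B shRNA was used, so an effect of KDM3B loss and an effect of that one hairpin cannot be told apart. The question for each gene was whether it changed when KDM3B was silenced, with and without ATRA.

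Methylation of H3K9 marks silenced chromatin, and it is removed by enzymes of several families. The KDM3 enzymes (KDM3A, KDM3B and JMJD1C) are Jumonji dioxygenases, which need iron and 2-oxoglutarate, and KDM3A and KDM3B act on the mono- and dimethylated mark. The activity of JMJD1C on this mark is debated. The KDM4 enzymes act on the trimethylated and dimethylated mark and also on H3K36, PHF8 and KDM7A carry a PHD finger that binds H3K4me3 beside a Jumonji domain for H3K9me2, and PHF2 is a close relative of both. KDM1A, also called LSD1, is a flavin-dependent amine oxidase that works in repressive complexes with RCOR1 and the GFI1 factors in blood cells. ATRA drives promyelocytic leukemia cells towards granulocytes.

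The libraries held between 9708739 and 33017787 counts on genes. In the untreated libraries and in shNC_ATRA replicate 1, 8.49% to 9.62% of the counts fell outside annotated genes, and in the other 3 ATRA libraries this share was 50.0% to 51.4%. shNC_ATRA replicate 1 thus stood apart from its own replicate, and the values of the members between the ATRA groups are given with and without it. Of the promyelocyte markers, MPO, ANPEP and CD33 were present in all 8 libraries, while ELANE, PRTN3 and AZU1 stayed at or under 1.48 CPM (counts scaled to library size). The identity as NB4 cells is taken from the study and was not tested with these markers. ITGAM, CYBB, TGM2 and CEBPE, markers of granulocytic differentiation, rose with ATRA in both lines. In shKDM3B cells MPO was higher than in shNC cells with and without ATRA, and ITGAM and CYBB were lower. Of the markers of other cell types, MS4A1 and HBB were at 0 counts in all libraries, CD3E did not exceed 0.55 CPM, and EPCAM lay between 12.9 and 19.0 CPM. Since these are bulk libraries, a smaller number of expressing cells and less RNA per cell cannot be told apart, and whether the change in differentiation markers has a part in the values below was not tested.

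Per length of exon, KDM3B was the most abundant of these transcripts in shNC cells. Its level was 23.6 and 24.0 CPM per kb in replicates 1 and 2, above every other member. KDM4A (12.0 and 13.6 CPM per kb), KDM1A (12.1 and 13.4) and JMJD1C (12.4 and 11.3) followed, and neighbours among these 3 overlapped. PHF2 was at 9.21 and 10.5 CPM per kb, PHF8 at 5.31 and 7.01, and KDM3A at 3.99 and 4.64. KDM4B (2.86 and 3.72) and KDM4C (2.12 and 3.61) overlapped, and KDM7A was lowest at 0.319 and 0.559 CPM per kb. The lengths were the union of all GENCODE v44 exons of each gene. With the longest transcript instead, only 4 of the 10 genes kept their place, and KDM1A (38.2 and 42.6 CPM per kb) was placed above KDM3B (27.7 and 28.1), so the upper end of this order depends on the length used.

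On hg38, KDM3B (ENSG00000120733.15) lies on the + strand of chromosome 5 at 138352685-138437028, KDM3A (ENSG00000115548.17) on the + strand of chromosome 2 at 86440647-86492716, KDM7A (ENSG00000006459.11) on the − strand of chromosome 7 at 140084746-140176983, KDM4B (ENSG00000127663.15) on the + strand of chromosome 19 at 4969113-5153598 and KDM1A (ENSG00000004487.18) on the + strand of chromosome 1 at 23019443-23083689. None of these 5 shares exons with another annotated gene. KDM4A shares 40.2% of its exon length with a same-strand gene and 9.12% with the antisense gene KDM4A-AS1, JMJD1C shares 4.33% with JMJD1C-AS1, and KDM4C shares 1.31% with a same-strand gene. The strand setting of the counting is not given in the sources used here, and it bears only on the antisense overlaps. Same-strand overlap affects counting under either setting, so the counts of KDM4A in particular are uncertain. These overlaps are from GENCODE v44, while the study's methods name a RefSeq annotation for the counting.

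The start regions of the 4 members whose RNA differed most between groups besides KDM3B are printed because the values below turn on these genes. Each window of 300 bases spans a RefSeq start site (GRCh38.p14), lies mostly before it, is written 5′ to 3′ on the gene's strand, and carries in capitals the matches to 6 motifs searched on both strands. The motifs were TGANTCA (AP-1), TGACGTCA (CRE), CCGGAAGT (ETS), CACGTG (E-box), ACGTG (the HIF core, which every E-box match also contains on each strand) and AGGTCA (retinoid receptor motif).
KDM3A, chr2:86441211-86441510, + strand: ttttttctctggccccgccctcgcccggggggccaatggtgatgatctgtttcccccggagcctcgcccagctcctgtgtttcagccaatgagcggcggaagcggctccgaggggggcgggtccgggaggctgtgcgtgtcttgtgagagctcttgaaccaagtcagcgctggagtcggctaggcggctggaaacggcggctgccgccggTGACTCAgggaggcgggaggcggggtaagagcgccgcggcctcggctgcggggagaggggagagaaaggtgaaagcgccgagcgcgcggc
KDM7A, chr7:140176934-140177233, − strand: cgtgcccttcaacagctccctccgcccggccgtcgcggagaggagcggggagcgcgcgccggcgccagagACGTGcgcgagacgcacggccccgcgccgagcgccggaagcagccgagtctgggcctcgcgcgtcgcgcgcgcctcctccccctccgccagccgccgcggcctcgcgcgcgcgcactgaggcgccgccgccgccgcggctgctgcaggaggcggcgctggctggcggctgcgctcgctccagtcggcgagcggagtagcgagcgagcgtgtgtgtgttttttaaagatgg
KDM4B, chr19:4968863-4969162, + strand: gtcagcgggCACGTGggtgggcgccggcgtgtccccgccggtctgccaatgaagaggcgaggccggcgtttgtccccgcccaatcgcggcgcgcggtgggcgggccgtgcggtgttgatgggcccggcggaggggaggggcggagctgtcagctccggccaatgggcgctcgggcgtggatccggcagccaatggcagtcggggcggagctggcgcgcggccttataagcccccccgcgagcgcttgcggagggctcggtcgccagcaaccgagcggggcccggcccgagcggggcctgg
KDM1A, chr1:23019218-23019517, + strand: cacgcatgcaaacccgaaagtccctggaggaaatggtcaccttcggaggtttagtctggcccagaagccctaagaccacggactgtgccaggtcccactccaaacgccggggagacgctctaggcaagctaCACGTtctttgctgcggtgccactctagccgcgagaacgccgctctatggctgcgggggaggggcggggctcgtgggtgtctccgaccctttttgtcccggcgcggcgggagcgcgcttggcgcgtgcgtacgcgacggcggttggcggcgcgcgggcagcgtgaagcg
The printed KDM3A window held 1 AP-1 match, present in 7.71% of 35116 promoter windows of this length. The window of the other RefSeq start of KDM3A (chr2:86441121-86441420), which overlaps it, held none of the 6 motifs. The KDM7A and KDM1A windows each held 1 ACGTG match (21.4% of windows), and the KDM4B window held 1 CACGTG match (7.26%). No window of the 10 genes held AGGTCA (13.8% of windows), which says only that these letters are not in these windows. The window of KDM3B held none of the 6 motifs. A match is a description of the sequence and no binding was measured.

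**Figure D1:**
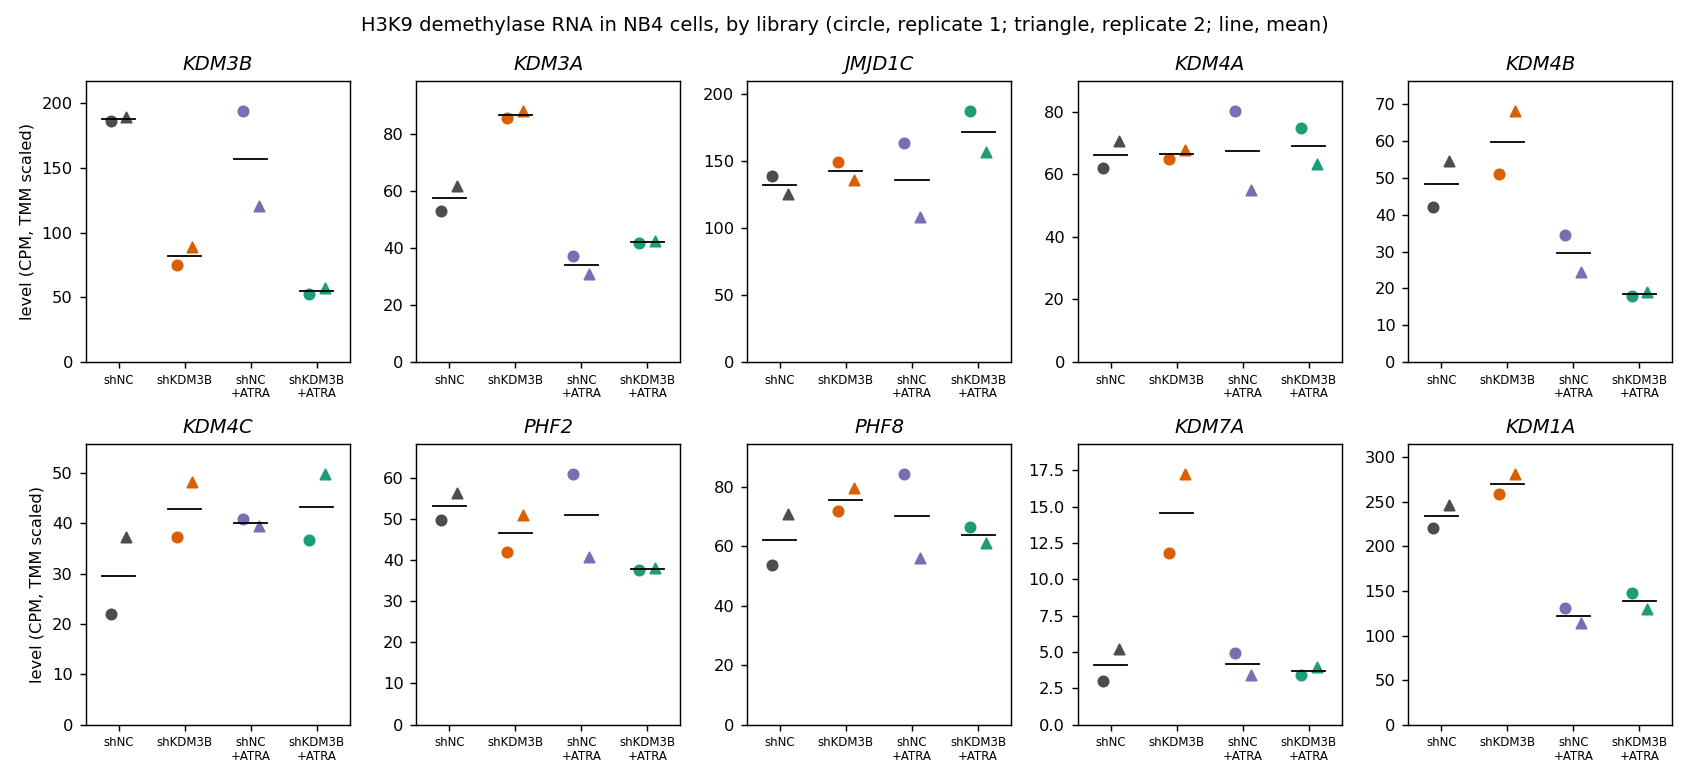
Level of each H3K9 demethylase (y axis, CPM with TMM scaling, from 0) in the 4 groups (x axis); circles are replicate 1, triangles replicate 2 and lines the mean of 2. KDM3B is lower in both shKDM3B groups, KDM7A is high in the shKDM3B libraries without ATRA (11.8 and 17.3 CPM), and KDM3A, KDM4B and KDM1A are lower with ATRA.

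Without ATRA, silencing lowered KDM3B itself and raised KDM7A, while the remaining 8 genes were not called, 1 of them (KDM3A) by the fold limit alone. A gene was called where the unadjusted p of edgeR's quasi-likelihood test was under 0.05 and the fold change at least 1.5, the thresholds of the study's methods. Of 13855 genes tested, 7.01% were called, 3.48% higher and 3.53% lower, and of the 10 members 1 was called higher and 1 lower. At a Benjamini-Hochberg adjusted p under 0.05 edgeR called 3 genes of all and none of the members, although 3 members and 1411 genes had an unadjusted p under 0.05. DESeq2, run as an alternative, gave 278 genes and 2 members (KDM3B and KDM7A) at an adjusted p under 0.05. Apart from KDM3B, the median log2 fold change of the 9 members was 0.27, beside 0.00 over all genes tested. The CPM values of the 2 groups did not overlap for 6 members (KDM3B lower, and KDM3A, KDM4C, PHF8, KDM7A and KDM1A higher), and the same held for 39.7% of genes.

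Within the KDM3 subfamily, KDM3B stood at 186 and 189 CPM in shNC and at 75.1 and 89.1 CPM in shKDM3B. It was 2.31-fold lower (log2 fold change -1.21, SE 0.15, 95% interval -1.55 to -0.87, unadjusted p = 3.2e-05, edgeR quasi-likelihood with Benjamini-Hochberg adjusted p = 0.068). The target of the shRNA was thus low in both libraries carrying the shKDM3B label. KDM3A, the closest relative of KDM3B and a gene that is known to be induced by hypoxia, was at 53.1 and 61.8 CPM in shNC and at 85.7 and 88.1 CPM in shKDM3B. Both knockdown libraries lay above both controls, and the log2 fold change of 0.58 (SE 0.15, 95% interval 0.23 to 0.94, unadjusted p = 0.0051, edgeR quasi-likelihood with Benjamini-Hochberg adjusted p = 0.208) was 1.499-fold, just short of the limit of 1.5. KDM3A was called with no low-count filter, where its log2 fold change was 0.586, and without shNC replicate 2 (0.68) or shKDM3B replicate 2 (0.59), so the side of the fold limit on which KDM3A falls depends on the setting. JMJD1C had 139 and 126 CPM in shNC and 150 and 136 CPM in shKDM3B. These ranges overlapped, with a log2 fold change of 0.10 (95% interval -0.25 to 0.45).

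Among the KDM4 enzymes none was called. KDM4A was at 62.0 and 70.5 CPM in shNC and at 64.9 and 67.9 CPM in shKDM3B, a log2 fold change of -0.01 with a 95% interval of -0.36 to 0.34. KDM4B was at 42.1 and 54.7 CPM against 51.2 and 68.2 CPM, a log2 fold change of 0.28 (95% interval -0.16 to 0.73). The groups overlapped for both genes. KDM4C was at 21.9 and 37.2 CPM in shNC and at 37.3 and 48.3 CPM in shKDM3B, a log2 fold change of 0.52 (SE 0.25, 95% interval -0.06 to 1.10, unadjusted p = 0.074 by edgeR's quasi-likelihood test). Its value was set by single libraries: the log2 fold change was 0.94 without shNC replicate 2 and 0.66 without shKDM3B replicate 1, both called, and 0.20 at the lowest with a library left out.

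KDM7A, a demethylase of H3K9me2 and H3K27me2, had the largest difference of the 10 genes. Its 60 and 124 counts in shNC were 2.99 and 5.24 CPM, and its 234 and 544 counts in shKDM3B were 11.8 and 17.3 CPM. The lower knockdown library was still above the higher control, and the fold was 3.48 (log2 fold change 1.80, SE 0.32, 95% interval 1.07 to 2.54, unadjusted p = 0.00045, edgeR quasi-likelihood with Benjamini-Hochberg adjusted p = 0.111). With any 1 of the 4 libraries left out it remained called, at log2 fold changes of 1.47 to 2.25. Its relatives PHF8 and PHF2 were not called. PHF8 was at 53.7 and 70.8 CPM in shNC and at 71.7 and 79.4 CPM in shKDM3B (log2 fold change 0.27, 95% interval -0.13 to 0.67). PHF2 was at 49.7 and 56.4 CPM and at 42.0 and 50.9 CPM (log2 fold change -0.21, 95% interval -0.59 to 0.18). KDM1A was at 221 and 246 CPM in shNC and at 259 and 282 CPM in shKDM3B, a log2 fold change of 0.19 (95% interval -0.13 to 0.52).

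**Figure D2:**
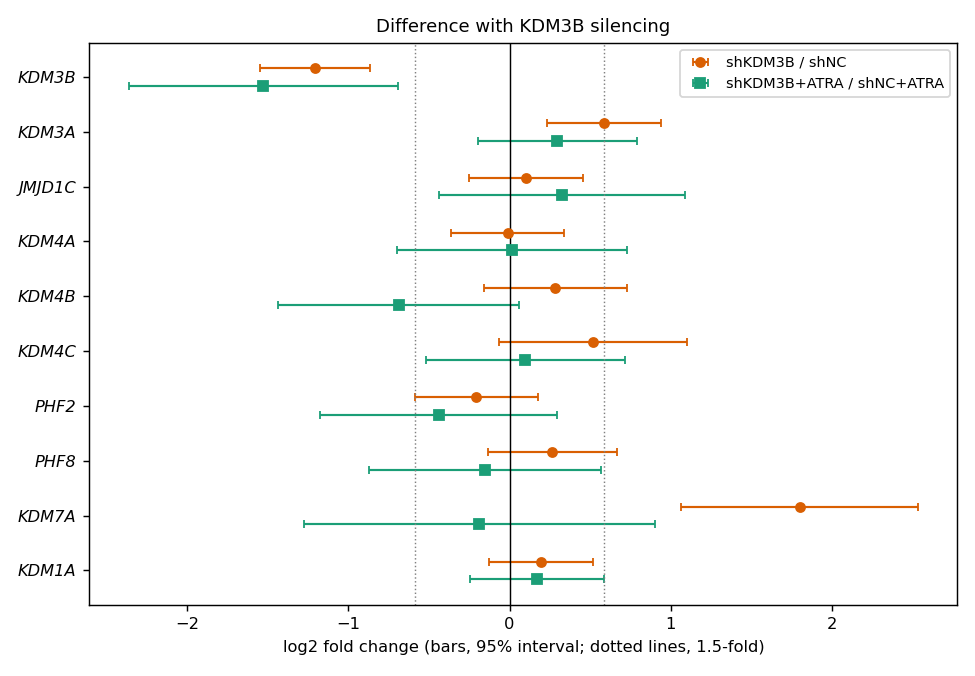
Log2 fold change (x axis, bars give the 95% interval) of each gene (y axis) with KDM3B silencing, without ATRA (circles, shKDM3B over shNC) and with ATRA (squares, shKDM3B_ATRA over shNC_ATRA); dotted lines mark 1.5-fold. KDM3B lies below 0 in both comparisons (-1.21 and -1.53), and KDM7A lies at 1.80 without ATRA and at -0.19 with it.

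In ATRA-treated cells KDM3B was the only member called between shKDM3B_ATRA and shNC_ATRA, and it was lower. Of 14281 genes tested, 6.79% were called, 2.42% higher and 4.37% lower. This balance turned with 1 control library left out, to 1288 higher and 1191 lower without shNC_ATRA replicate 1 and 3307 higher and 1888 lower without replicate 2. No gene reached an adjusted p under 0.05 in edgeR, beside 1383 genes and 1 member at an unadjusted p under 0.05, and DESeq2 gave 464 genes and 1 member (KDM3B) at an adjusted p under 0.05. The CPM values of the groups did not overlap for 4 members (KDM3A higher, and KDM3B, KDM4B and PHF2 lower), and for 50.2% of genes. The median log2 fold change of the 9 members other than KDM3B was 0.02, beside 0.03 over all genes tested.

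KDM3B was at 194 and 120 CPM in shNC_ATRA and at 52.8 and 57.1 CPM in shKDM3B_ATRA, 2.89-fold lower (log2 fold change -1.53, SE 0.29, 95% interval -2.37 to -0.69, unadjusted p = 0.0079, edgeR quasi-likelihood with Benjamini-Hochberg adjusted p = 0.502). Both knockdown libraries were below both controls. The controls themselves were far apart, and the log2 fold change was -1.13 without shNC_ATRA replicate 1 and -1.84 without replicate 2. Without shKDM3B_ATRA replicate 1 or 2 it was -1.47 or -1.60 and was no longer called (unadjusted p = 0.065 and 0.055 by edgeR's quasi-likelihood test). KDM3A was at 37.1 and 30.9 CPM against 41.8 and 42.6 CPM, with a log2 fold change of 0.30 (95% interval -0.20 to 0.79), which was 0.45 without shNC_ATRA replicate 1 and 0.16 without replicate 2, not called in either case. KDM7A, which had risen in untreated knockdown cells, was at 4.96 and 3.38 CPM in shNC_ATRA and at 3.39 and 3.997 CPM in shKDM3B_ATRA. These are 82, 37, 32 and 40 counts, the ranges overlapped, and the log2 fold change of -0.19 had a wide 95% interval of -1.28 to 0.90. It was 0.13 without shNC_ATRA replicate 1 and -0.45 without replicate 2.

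KDM4B was at 34.6 and 24.5 CPM in shNC_ATRA and at 18.0 and 19.0 CPM in shKDM3B_ATRA. Both knockdown libraries were lower, with a log2 fold change of -0.69 (SE 0.26, 95% interval -1.44 to 0.06, unadjusted p = 0.063 by edgeR's quasi-likelihood test), and the log2 fold change was -0.41 and not called without shNC_ATRA replicate 1, and -0.93 and called without replicate 2. JMJD1C was at 164 and 108 CPM against 187 and 157 CPM (log2 fold change 0.32, 95% interval -0.44 to 1.09). It was called higher, at 0.67, without shNC_ATRA replicate 1, and was at 0.0471 and not called without replicate 2. PHF2 was at 60.9 and 40.7 CPM against 37.5 and 38.1 CPM (log2 fold change -0.44, 95% interval -1.17 to 0.29), and was at -0.11 and not called without shNC_ATRA replicate 1, and called lower, at -0.71, without replicate 2.

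The 4 genes not yet named also overlapped between the ATRA groups. KDM4A was at 80.2 and 54.9 CPM in shNC_ATRA and at 74.9 and 63.2 CPM in shKDM3B_ATRA (log2 fold change 0.02, 95% interval -0.70 to 0.73). KDM4C was at 40.8 and 39.4 CPM against 36.7 and 49.9 CPM (0.10, -0.52 to 0.72), and KDM1A at 131 and 114 CPM against 148 and 130 CPM (0.17, -0.25 to 0.58), each given as log2 fold change and 95% interval. PHF8 was at 84.3 and 56.0 CPM against 66.6 and 61.1 CPM (log2 fold change -0.15, 95% interval -0.87 to 0.57). Without shNC_ATRA replicate 1 these 4 log2 fold changes were 0.33 for KDM4A, 0.14 for KDM4C, 0.28 for KDM1A and 0.19 for PHF8. Without replicate 2 they were -0.24, 0.0621, 0.0652 and -0.43 in the same order, and none was called in either case. All 10 members were higher in shNC_ATRA replicate 1 than in replicate 2, by a median of 0.55 on the log2 scale, while 49.0% of 13520 genes were higher and the median of all genes was -0.01. In shNC and in shKDM3B 1 of 10 members was higher in replicate 1, beside 45.4% and 39.8% of genes, and in shKDM3B_ATRA 4 of 10, beside 51.3% of genes. The part of the difference in counts outside genes (9.36% and 50.0%) in this gap was not tested.

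With ATRA, KDM1A, KDM3A and KDM4B were called lower in both lines, and KDM7A was called lower in shKDM3B cells. In shNC cells 25.9% of 12429 genes were called (15.0% higher, 10.8% lower), and 3 of 10 members were called, all lower. Of the genes called there 58.1% were higher, and 48.9% with library size alone as the scaling. In shKDM3B cells 42.2% of 12756 genes were called (24.0% higher, 18.3% lower), and 4 of 10 members were called, all lower. An adjusted p under 0.05 was reached in edgeR by 1604 genes and 1 member in shNC cells, and by 6381 genes and 5 members in shKDM3B cells. The groups did not overlap for 4 members in shNC cells, beside 57.7% of genes, and for 8 members in shKDM3B cells, beside 76.6% of genes. The comparison in shKDM3B cells sets libraries with 51.4% and 51.0% of counts outside genes against libraries with 9.62% and 8.49%. In shNC cells shNC_ATRA replicate 2 (50.0%) stood apart in the same way from the untreated libraries (9.28% and 8.83%). An effect of ATRA and of this library difference cannot be fully told apart, and its part in the values with ATRA here and below was not tested.

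**Figure D3:**
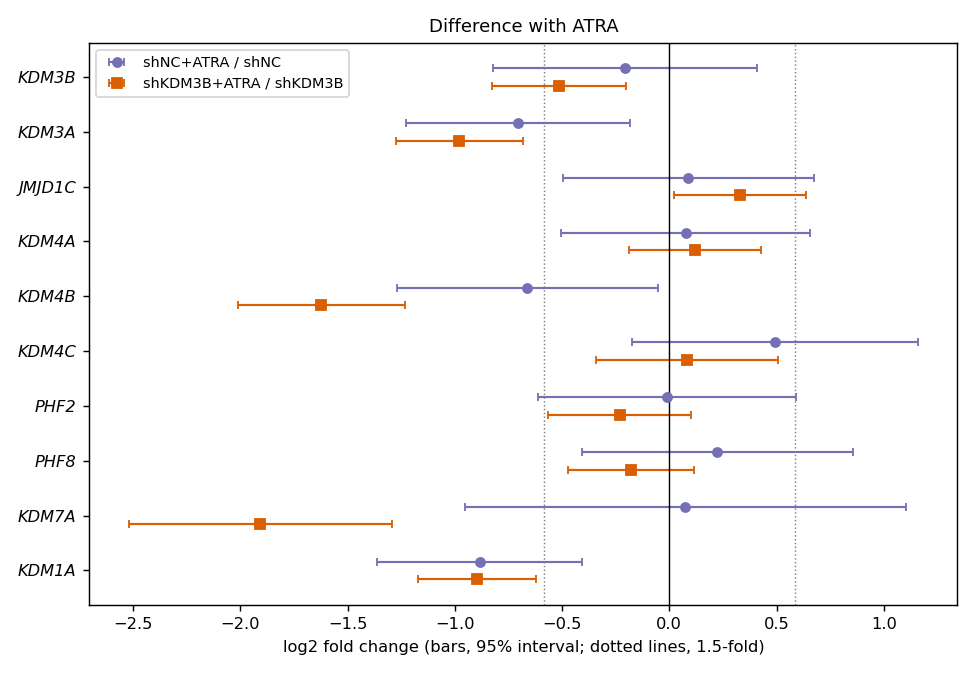
Log2 fold change with ATRA (x axis, bars give the 95% interval) of each gene (y axis) in shNC cells (circles) and in shKDM3B cells (squares); dotted lines mark 1.5-fold. KDM1A and KDM3A lie below 0 in both lines, KDM4B is lower in shKDM3B cells (-1.62) than in shNC cells (-0.66), and KDM7A is at -1.91 in shKDM3B cells and 0.07 in shNC cells.

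KDM1A went from 221 and 246 CPM to 131 and 114 CPM with ATRA in shNC cells, a log2 fold change of -0.88 (SE 0.20, edgeR quasi-likelihood with Benjamini-Hochberg adjusted p = 0.0314). In shKDM3B cells it went from 259 and 282 to 148 and 130 CPM, a log2 fold change of -0.90 (SE 0.12, edgeR quasi-likelihood with Benjamini-Hochberg adjusted p = 0.00028). Without shNC_ATRA replicate 1 the value in shNC cells was -0.97, and without replicate 2 it was -0.81, both called. The difference between these responses was -0.03 (95% interval -0.49 to 0.43) on the log2 scale. KDM3A fell by 0.70 in shNC cells (SE 0.22, unadjusted p = 0.015, edgeR quasi-likelihood with Benjamini-Hochberg adjusted p = 0.0867) and by 0.98 in shKDM3B cells (SE 0.13, adjusted p = 0.00025), each on the log2 scale. The call in shNC cells was lost without shNC replicate 2 (-0.61, unadjusted p = 0.110 by edgeR's quasi-likelihood test) and kept without shNC_ATRA replicate 1 (-0.83) or 2 (-0.60), and the difference between the responses was -0.29 (95% interval -0.79 to 0.21).

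KDM4B, a demethylase of H3K9me3, fell in both lines, and by more in shKDM3B cells. Its log2 fold change was -0.66 in shNC cells (SE 0.26, unadjusted p = 0.037, edgeR quasi-likelihood with Benjamini-Hochberg adjusted p = 0.15) and -1.62 in shKDM3B cells (SE 0.17, adjusted p = 5.4e-05). The call in shNC cells was lost without shNC replicate 1 (-0.84, unadjusted p = 0.053), shNC replicate 2 (-0.48) or shNC_ATRA replicate 2 (-0.45) in edgeR's quasi-likelihood test, and kept without shNC_ATRA replicate 1 (-0.92). The difference between the lines was tested with an interaction term over all 8 libraries and was -0.98 (SE 0.32, 95% interval -1.73 to -0.23, unadjusted p = 0.017 in edgeR's quasi-likelihood test). That difference was no longer called without shNC replicate 1, shKDM3B replicate 2 or either shKDM3B_ATRA library (-0.74 to -0.99), and it was -0.70 without shNC_ATRA replicate 1 and -1.21 without replicate 2, both called.

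KDM7A differed most between the lines. With ATRA its log2 fold change was 0.07 (95% interval -0.95 to 1.10) in shNC cells and -1.91 (SE 0.27, edgeR quasi-likelihood with Benjamini-Hochberg adjusted p = 0.00037) in shKDM3B cells, where it was 3.75-fold lower. The interaction was -2.00 (SE 0.54, 95% interval -3.26 to -0.74, unadjusted p = 0.0070 in edgeR's quasi-likelihood test), and it remained called with any 1 of the 8 libraries left out (-1.66 to -2.45). KDM7A and KDM4B were the 2 of 10 members called for the interaction, both lower, where 3.99% of 13528 genes were called (1.27% higher, 2.72% lower). Of the genes called for the interaction 31.9% were higher, and 45.6% with library size alone as the scaling. No gene had an adjusted p under 0.05 for the interaction in edgeR, beside 607 at an unadjusted p under 0.05 and 23 genes, none of them a member, at an adjusted p under 0.05 in DESeq2, so neither difference holds after correction over all genes. The shNC and shKDM3B libraries serve both the comparison by knockdown and that by ATRA, so the rise of KDM7A without ATRA and its fall with ATRA in shKDM3B cells rest on the same libraries of 11.8 and 17.3 CPM.

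The other members were not called with ATRA. KDM3B had a log2 fold change of -0.21 (95% interval -0.82 to 0.41; -0.58 without shNC_ATRA replicate 1 and 0.0791 without replicate 2) in shNC cells and of -0.51 (95% interval -0.82 to -0.20, edgeR quasi-likelihood with Benjamini-Hochberg adjusted p = 0.0124) in shKDM3B cells, a fold of 1.43 and below the limit. It was called there without shKDM3B replicate 1 (-0.64). JMJD1C was at 0.09 and 0.33, KDM4A at 0.08 and 0.12, and PHF2 at -0.01 and -0.23 on the log2 scale in shNC and shKDM3B cells. PHF8 was at 0.22 and -0.18. KDM4C was at 0.49 and 0.08, and was called in shNC cells without shNC replicate 2 (0.91).

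Summed over the KDM3 subfamily, the RNA per length was lower in the shKDM3B libraries without ATRA, and the share of KDM3B in it was smaller. The sum of KDM3A, KDM3B and JMJD1C was 40.0 and 39.9 CPM per kb in shNC and 29.4 and 30.1 CPM per kb in shKDM3B. With ATRA it was 42.1 and 27.3 CPM per kb in shNC_ATRA and 26.6 and 24.5 CPM per kb in shKDM3B_ATRA. The groups did not overlap in either case, but the shNC_ATRA replicates lay farther apart than the lower one lay from the knockdown. KDM3B made up 59.0% and 60.2% of the sum in shNC, and 32.4% and 37.6% in shKDM3B. JMJD1C was the largest of the 3 in all knockdown libraries, with 45.6% and 40.5% without ATRA and 63.0% and 57.3% with it. For 1 KDM3B transcript per length there were 0.169 and 0.193 of KDM3A in shNC, and 0.676 and 0.585 in shKDM3B. With ATRA this ratio was 0.113 and 0.152 in shNC_ATRA and 0.468 and 0.442 in shKDM3B_ATRA. The sums, shares and ratios use the union of exons and depend on that length. With the longest transcript KDM3A was at 6.08 and 7.07 CPM per kb in shNC, and KDM3B at 27.7 and 28.1. These sums contain KDM3B, the target of the shRNA, and say nothing of protein or activity.

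**Figure D4:**
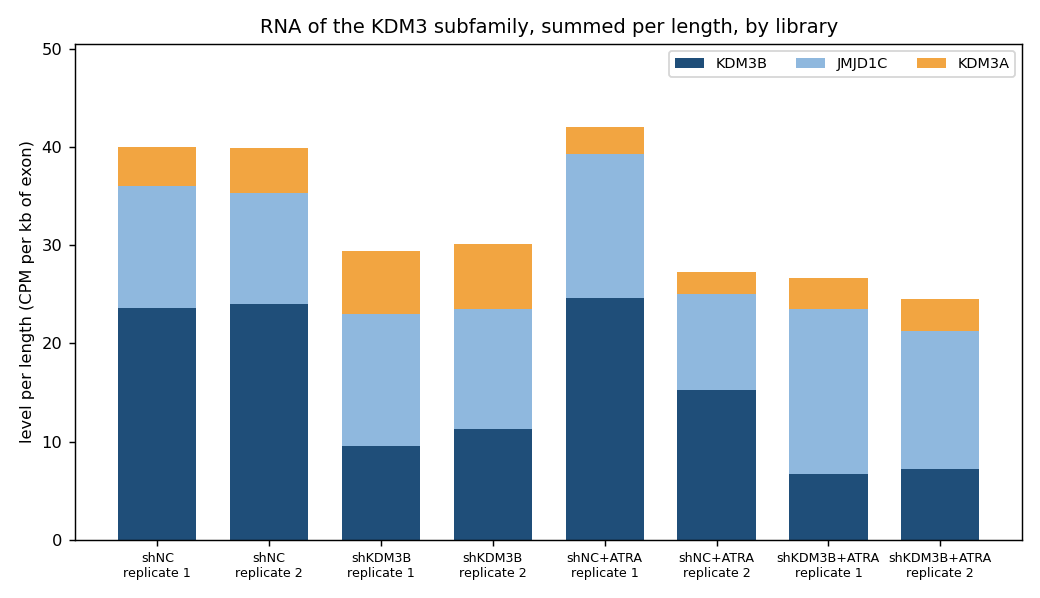
RNA per length (y axis, CPM per kb of exon, from 0) of KDM3B, JMJD1C and KDM3A, stacked, in each of the 8 libraries (x axis). The sum is 40.0 and 39.9 in the shNC libraries and 29.4 and 30.1 in the shKDM3B libraries, and the 2 shNC_ATRA libraries differ (42.1 and 27.3).

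Other enzymes and partners of the H3K9 pathway were set beside the 10 genes. Of 15 other histone demethylases, 14 were tested without ATRA. KDM5B, an H3K4 demethylase, was called higher with silencing, and HR, a Jumonji protein with activity on H3K9, was called lower. These were 2 of 14, where 7.01% of all genes were called. KDM5B was at 81.9 and 141 CPM in shNC and at 206 and 212 CPM in shKDM3B (log2 fold change 0.89, SE 0.23, edgeR quasi-likelihood with Benjamini-Hochberg adjusted p = 0.208). HR had 28 and 37 counts in shNC and 5 and 25 counts in shKDM3B (edgeR quasi-likelihood with Benjamini-Hochberg adjusted p = 0.400), and DESeq2 did not call it. Between the ATRA groups KDM5B (57.6 and 63.2 CPM against 126 and 114 CPM, log2 fold change 0.98, SE 0.12) and RIOX2 (log2 fold change 0.59, SE 0.20) were called higher with silencing. Both were among 13 tested, where 6.79% of all genes were called. Their Benjamini-Hochberg adjusted p in edgeR's quasi-likelihood test was 0.502 and 0.513. With ATRA 4 of 14 were called in shNC cells and 4 of 13 in shKDM3B cells, beside 25.9% and 42.2% of all genes. In shNC cells KDM6B, the H3K27 demethylase, was higher with ATRA, at 64.2 and 43.2 CPM against 16.1 and 27.5 CPM. RIOX2 (log2 fold change -0.91), KDM5B (-0.83) and HR, which was at 0 and 1 counts with ATRA, were lower. In shKDM3B cells KDM6B (0.97) was higher with ATRA, and KDM5B (-0.74), KDM5C (-0.66) and RIOX1 (-0.81) were lower.

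The enzymes that write the mark and the proteins that bind it were also counted. Of 9 H3K9 methyltransferases, 0 of 6 tested were called without ATRA and 0 of 7 with ATRA, with median log2 fold changes of 0.11 and -0.10, beside 0.00 and 0.03 over all genes tested. In each of these comparisons 1 of them had an unadjusted p under 0.05 in edgeR, and DESeq2 called 0. Since 7.01% and 6.79% of all genes were called, lists this short could hold no call at the background share. SETDB2 was called higher with ATRA in both lines (log2 fold change 0.59 in shNC, where DESeq2 did not call it, and 0.85 in shKDM3B). So was MECOM, which had 1 to 4 counts in the untreated libraries and 40 to 97 counts with ATRA. EHMT1, a writer of H3K9me2, was lower with ATRA in shKDM3B cells (-0.61). Its partner EHMT2 was listed at 0 or 1 counts in every library, and no level is read from that. Of 10 readers and HUSH complex members, 0 were called in any comparison by edgeR or DESeq2, and 0 to 2 had an unadjusted p under 0.05 in edgeR. Of all genes 25.9% and 42.2% were called with ATRA in shNC and shKDM3B cells.

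The partners of KDM1A were tested in the same way. Of 13 partners, 0 were called with silencing in either condition by edgeR or DESeq2, with 2 at an unadjusted p under 0.05 in edgeR without ATRA and 1 with it, where 7.01% and 6.79% of all genes were called. With ATRA 4 of 13 were called in shNC cells, beside 25.9% of all genes, and 7 of 13 in shKDM3B cells, beside 42.2%. In shNC cells GFI1B was higher with ATRA, at 44.5 and 38.8 CPM against 1.15 and 1.35 CPM. GFI1 (log2 fold change -0.73), ZMYM2 (-1.12) and RCOR2 were lower. In shKDM3B cells 3 partners rose and 4 fell, among them GFI1B (5.72), GSE1 (1.10), HDAC1 (0.89) and GFI1 (-0.85). The KDM1A list was chosen because KDM1A binds GFI1 and GFI1B, and no binding was measured here. No gene of these 4 lists was called for the interaction by edgeR or DESeq2, or had an unadjusted p under 0.05 in edgeR.

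Across all 8 libraries, the genes whose log2 CPM was most like that of KDM3B among 13519 genes were TSPYL2 (Pearson r = 0.9751), ZBTB48 (0.969) and BAD (0.964). Among the members PHF2 was most like KDM3B (r = 0.844), and KDM4C (-0.48) and JMJD1C (-0.47) were least like it. These 8 points share their group means and the gap between the shNC_ATRA libraries, so the values are a description.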

How the data were processed

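Gene counts of 8 RNA-seq libraries of NB4 cells were used, 2 for each of 4 groups taken from the sample titles. The authors aligned paired-end reads to hg38 with HISAT2 and deposited whole-number counts per gene name from HTSeq, with no normalization. Tool versions and the strand setting are not given in the sources used here. The untreated files list 56470 names and the ATRA files 56609, so comparisons across treatment used the 37526 shared names. HTSeq's summary lines, among them counts outside genes (8.49% to 51.4%), were left out of library sizes and tests.

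Counts were fitted over all genes with edgeR 4.0.16 in R 4.3.3 (quasi-likelihood test, TMM scaling, filterByExpr), each pairwise comparison on its own 4 libraries and the interaction on all 8. A gene was called at an unadjusted p under 0.05 and a fold change of at least 1.5, as in the study's methods, and Benjamini-Hochberg adjusted p-values over all genes of the fit are given beside it. Intervals are at 95%. CPM values were scaled with TMM factors over the 8 libraries, and levels between genes were divided by exon length from GENCODE v44. Promoter windows came from RefSeq. The scripts were tested on simulated counts. Alternatives were DESeq2 1.42.0, its size factors in edgeR, library size alone, no filter, all 8 libraries in one fit, a replicate block and each library left out.

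No source states that the 2 libraries of a group came from separate cultures, so p-values measure the spread between these libraries, which may be technical. The 10 genes, the lists of related genes and the tests were chosen with earlier results of these data known. All 10 genes are named in every comparison. From the related lists, the genes called are named, up to 4 per list and comparison by smallest p. The 3 genes most correlated with KDM3B were named for likeness. Counting error is largest for KDM7A among the 10 genes, with 32 to 544 counts per library. Some markers of other cell types are not reported here.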

Additional observations from a re-analysis of the deposited data

Results flagged for a closer look

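The response to ATRA differed between shKDM3B and shNC cells for KDM7A and KDM4B by the interaction term. The difference was -2.00 (SE 0.54) for KDM7A and -0.98 (SE 0.32) for KDM4B on the log2 scale, both past 0.05 before adjustment over all genes in edgeR and neither after it. KDM7A was at 11.8 and 17.3 CPM in the shKDM3B libraries and between 2.99 and 5.24 CPM in the other 6 libraries, so its difference rests on the untreated knockdown libraries. KDM4B was lowest in the shKDM3B_ATRA libraries, at 18.0 and 19.0 CPM.

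The counts outside annotated genes were not used in any comparison. They made up 50.0% in shNC_ATRA replicate 2, 51.4% in shKDM3B_ATRA replicate 1 and 51.0% in shKDM3B_ATRA replicate 2, above the 8.49% to 9.62% of the untreated libraries and the 9.36% of shNC_ATRA replicate 1.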

How the results depend on the processing

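Adjusted p-values under 0.05 left 0 of 2 members called between shKDM3B and shNC (3 of all genes), 0 of 1 between shKDM3B_ATRA and shNC_ATRA (0 genes), 1 of 3 with ATRA in shNC cells (1604 genes; KDM1A) and 0 of 2 for the interaction (0 genes), in edgeR. All 8 libraries in one fit called 2 members (KDM3B and KDM4B) between shKDM3B_ATRA and shNC_ATRA, and 1434 of all genes, beside 969 in the main fit. With no low-count filter the interaction called 941 genes and not 540. With library size alone, values near 0 changed sign, namely JMJD1C (-0.0028), KDM4A (-0.016) and KDM7A (-0.017) with ATRA in shNC cells, and KDM1A (0.042) for the interaction. With the longest transcript as the length, 4 genes kept their rank. The causes were not tested.

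The groups share replicate numbers, but nothing says that a number marks a shared culture or day. Correlations of same-numbered deviations were 0.386 (shKDM3B and shNC), 0.0216 (the ATRA groups), -0.0661 (shNC with and without ATRA) and 0.172 (shKDM3B with and without ATRA). A replicate block called 3 members between shKDM3B and shNC, the third being KDM3A (log2 fold change 0.586). Of all genes it called 1242 there, beside 971 without it, and 525 between the ATRA groups, beside 969 without it. KDM4B with ATRA in shNC cells was no longer called under the block (-0.67). The block changed no other member's call.

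With 1 library left out, members called ranged from 2 to 4 between shKDM3B and shNC (901 to 1595 genes), 0 to 3 between the ATRA groups (138 to 5195 genes), 2 to 3 with ATRA in shNC cells (1888 to 4647 genes) and 1 to 4 for the interaction (271 to 2381 genes). With ATRA in shKDM3B cells they ranged from 4 to 5. A group then has 1 library, which is assumed to vary like the others. Log2 fold changes that changed sign ranged between shKDM3B and shNC from -0.00924 to 0.19 for JMJD1C and -0.0900 to 0.0723 for KDM4A. Between the ATRA groups they ranged from -0.24 to 0.33 for KDM4A, -0.15 to 0.31 for KDM4C, -0.45 to 0.13 for KDM7A and -0.43 to 0.19 for PHF8. With ATRA in shNC cells they ranged from -0.58 to 0.0791 for KDM3B, -0.23 to 0.34 for JMJD1C, -0.21 to 0.31 for KDM4A, -0.28 to 0.52 for KDM7A, -0.32 to 0.23 for PHF2 and -0.0903 to 0.47 for PHF8. KDM4C ranged from -0.17 to 0.30 with ATRA in shKDM3B cells. For the interaction they ranged from -0.0507 to 0.55 for JMJD1C, -0.13 to 0.0824 for KDM1A, -0.63 to 0.0630 for KDM3B, -0.23 to 0.33 for KDM4A and -0.50 to 0.0859 for PHF2. For the interaction, KDM3B (-0.63) and PHF8 (-0.69) were called without shNC_ATRA replicate 2, and KDM4C (-0.85) without shNC replicate 2.

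The adjusted p of KDM7A between shKDM3B and shNC was 0.111 and ranged from 3.2e-07 to 0.308 over the alternatives of scaling, filter, tool, block and all 8 libraries in one fit (the highest) in edgeR and DESeq2, and that of KDM3B from 1.1e-08 to 0.257 around 0.068. KDM7A had the lowest depth of the members, with 32 to 82 counts in the ATRA libraries. The part of depth in its interval of -1.28 to 0.90 there was not tested.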

Other observations

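Both primers that the study's supplement lists for KDM3B were searched in the GENCODE v44 transcripts. The forward primer (KDM3B-F) and the reverse primer (KDM3B-R) are printed 5′ to 3′ because of where they matched.
KDM3B-F: ccatcgtcagccttaaagcac
KDM3B-R: tccaggcatactatcagcctc
Each matched 0 of 8 KDM3B transcripts over its full length. At the best ungapped position in them, on either strand, 13 and 14 of the 21 bases were identical. Each matched 10 transcripts of WIPI2, an autophagy gene whose protein binds phosphoinositides, and 9 transcripts held both, with a product of 136 bases. On hg38 the forward primer lies in exon 4 of a WIPI2 transcript on chromosome 7 at 5214589-5214609, and the reverse primer spans the junction of exons 4 and 5, from 5214704 to 5216563-5216582. In the RNA-seq counts WIPI2 had a log2 fold change of 0.02 (95% interval -0.33 to 0.37) between shKDM3B and shNC, and of -0.45 (95% interval -0.85 to -0.05) between shKDM3B_ATRA and shNC_ATRA. The latter had a Benjamini-Hochberg adjusted p of 0.506 in edgeR's quasi-likelihood test. The low KDM3B counts in the shKDM3B libraries do not rest on these primers, and the study showed its knockdown by Western blot in NB4 and PR9 cells.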
